A study of Sus scrofa with 10 samples.

Results

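The 59 genes described here encode the nuclear part of the oxidative phosphorylation machinery, and were chosen by symbol from 13755 named genes on a pig expression array. A gene belonged to the set when its symbol began with NDUFA, NDUFB, NDUFC, NDUFS, NDUFV, SDHA to SDHD, UQCR, COX4 to COX8 or ATP5, and of several probe sets the brightest, by its average over the 10 arrays, stood for the gene. The letters gave 25 subunits of complex I, 3 of complex II, 2 of complex III, 9 of complex IV and 14 of complex V. NDUFA4 and its isoform NDUFA4L2 were counted with complex IV, where NDUFA4 is now placed. The letters also took in 6 assembly and related factors, which are described apart. No measured value entered the symbol rule, although measured levels chose the probe set. The rule was set with earlier results of these data known. Of the 13 subunits that mitochondrial DNA encodes, 0 had a named probe set.

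RNA came from alveolar macrophages, the phagocytes of the lung airspaces, of 5 untreated Hampshire pigs. The frozen cells were thawed and kept overnight with recombinant human CSF-1, a macrophage growth factor. Each pig gave an array of cells that had not attached (non-adherent, n = 5) and an array of attached cells (adherent, n = 5). Large, granular cells were sorted from the unattached fraction, and no sort is stated for the attached cells. The adherent arrays were taken from an earlier series on the same pigs, so attachment, the sort and the array series cannot be told apart. Lipopolysaccharide is also mentioned in the protocol given for the adherent samples, although their labels read untreated.

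Oxidative phosphorylation makes most of the ATP of a resting cell. Complexes I and II pass electrons from NADH and succinate to ubiquinone, complex III passes them on to cytochrome c, and complex IV hands them to oxygen. Complexes I, III and IV pump protons across the inner mitochondrial membrane, and complex V, the ATP synthase, lets them return through a rotor that drives ATP formation. Alveolar macrophages are known for a metabolism that leans on mitochondrial respiration. Complex II is also an enzyme of the citrate cycle, and its oxidation of succinate is known to bear on inflammatory signalling in macrophages.

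The arrays showed macrophage genes in both groups. Of 7 measured markers of macrophages and leukocytes, CD163, SIGLEC1, MRC1, MARCO, CD14, ITGAM and PTPRC, 0 had a mean below 5.02, the median over all probe sets. ITGAM (5.17 in non-adherent and 5.35 in adherent cells) and MARCO in adherent cells (5.30) lay only a little above it. The mean of all 7 markers per array lay between 9.40 and 9.77 in non-adherent and between 8.48 and 9.51 in adherent cells. Of the 7, CD163 and PTPRC, 2 markers, were higher in non-adherent cells. Dendritic cell markers moved with the groups. Of 6 measured, 4 (LAMP3, FLT3, CCR7 and XCR1) were higher in non-adherent cells and 0 lower, and their mean per array lay between 6.74 and 7.78 against 5.67 to 6.13. CD1A had a mean below the median of all probe sets in both groups, and FLT3 and LAMP3 in adherent cells (4.81 and 4.99). Of 7 neutrophil, 8 T or NK cell and 4 B cell markers, 0 passed the test, and of 9 alveolar epithelial markers EPCAM alone passed, lower in non-adherent cells. Of 5 fibroblast markers COL1A2 passed, higher in non-adherent cells (0.33, adjusted p = 0.0272), and of 1 airway, 4 endothelial and 3 erythroid markers 0 passed. Means lay below the median of all probe sets for 2 neutrophil, 3 T or NK cell and 2 B cell markers. The same held for 4 alveolar epithelial, 3 fibroblast, 1 endothelial and 2 erythroid markers. Neutrophil markers averaged 8.47 to 8.71 per array in non-adherent and 8.05 to 9.05 in adherent cells, so not passing does not mean absent. The part of other cell types in the results below was not tested, and in such bulk samples fewer cells of a type cannot be told apart from less RNA per cell. The array of adherent animal 1 stood apart, with a mean correlation of 0.952 with the other adherent arrays over all genes, against 0.978 to 0.979 for the other 4. The bacterial bioB spike controls, which report on hybridisation and not on the cells, averaged 8.83 to 9.25 on non-adherent and 5.69 to 5.85 on adherent arrays, so a technical difference between the array series was present. Its part in the results was not tested.

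Non-adherent and adherent cells differed in single subunits of the respiratory chain in both directions, and the set did not move one way. All differences are log2 values of non-adherent minus adherent cells, given with the standard error of a limma fit over all genes, and a gene passed when its Benjamini-Hochberg adjusted p was below 0.05. Of the 59 genes, 9 were higher and 9 lower in non-adherent cells, and 41 did not pass. These 18 genes are 30.5% of the set, against 16.5% of all 13755 genes (6.72% higher and 9.78% lower). The genes of the set were mostly well above background, and among genes above the median of all probe sets 22.6% passed (8.40% higher and 14.2% lower), against 20 of 56 genes of the set (9 higher and 11 lower). The median log2 difference was -0.08 over the set and 0.01 over all genes, and 4 of 59 genes differed by a log2 of 1 or more. The plot of differences by complex shows rises and falls side by side within complexes I, II, IV and V.

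**Figure D1:**
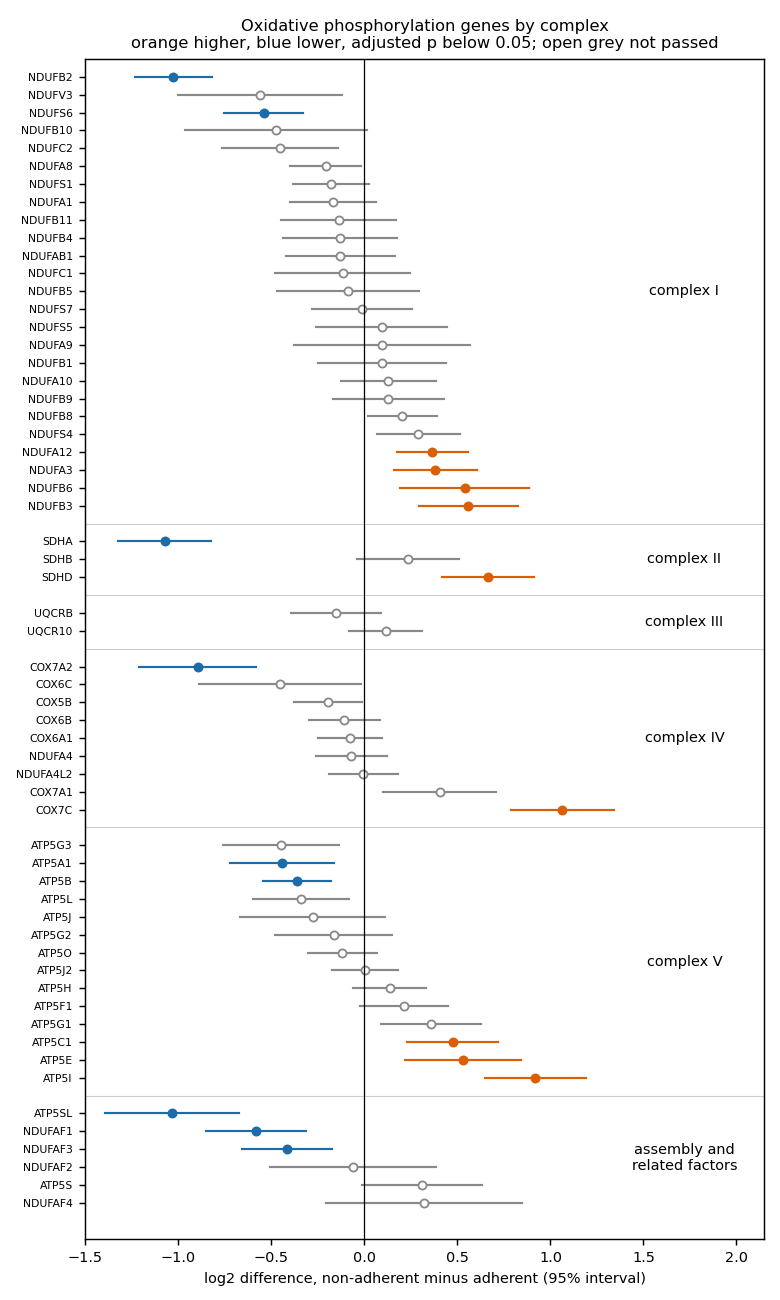
Log2 differences of the 59 genes, non-adherent minus adherent, with 95% intervals from the limma fit, grouped by complex. Filled points passed at an adjusted p below 0.05 (9 orange, higher; 9 blue, lower), and the 41 open grey points did not; complexes I, II, IV and V each hold both colours.

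Of the 3 measured genes of complex II, 1 was lower, 1 was higher and 1 did not pass. The 2 that passed are 66.7% of so few genes, against 16.5% of all genes. SDHA is the flavoprotein that oxidises succinate, SDHB carries the iron-sulfur clusters that take up the electrons, and SDHD is a membrane anchor that helps to bind ubiquinone. SDHA values of animals 1 to 5 were 9.49, 9.16, 9.06, 9.17 and 8.97 in non-adherent and 10.19, 10.09, 10.33, 10.15 and 10.47 in adherent cells. The highest non-adherent array thus lay below the lowest adherent array. SDHA fell by 1.07 ± 0.11 on the log2 scale, a 2.10-fold lower level (adjusted p = 0.000211), in 5 of 5 animals.

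SDHD went the other way. Its values were 8.67, 8.59, 8.70, 8.76 and 8.66 in non-adherent and 8.04, 8.08, 7.92, 8.33 and 7.68 in adherent cells, so its groups did not overlap either. SDHD rose by 0.66 ± 0.11 (adjusted p = 0.0029), a 1.58-fold higher level. For SDHB the values were 11.41, 11.55, 11.56, 11.38 and 11.44 against 11.60, 11.35, 11.20, 11.15 and 10.87. These groups overlapped, because adherent animal 1 had the highest value of all 10 arrays. SDHB did not pass (0.23 ± 0.12, adjusted p = 0.224), but did pass without the array of adherent animal 1 (0.33, adjusted p = 0.0451).

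Different probe sets of the same gene bear on how firmly a level is known. SDHA had 4 probe sets, and each one was lower in non-adherent cells and passed in a fit over all 47845 probe sets, with differences from -1.07 to -0.58. SDHB had 6 probe sets, of which 0 passed, with differences from -0.26 to 0.23, and the mean of all 6 was -0.04. SDHD had 1 probe set.

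**Figure D2:**
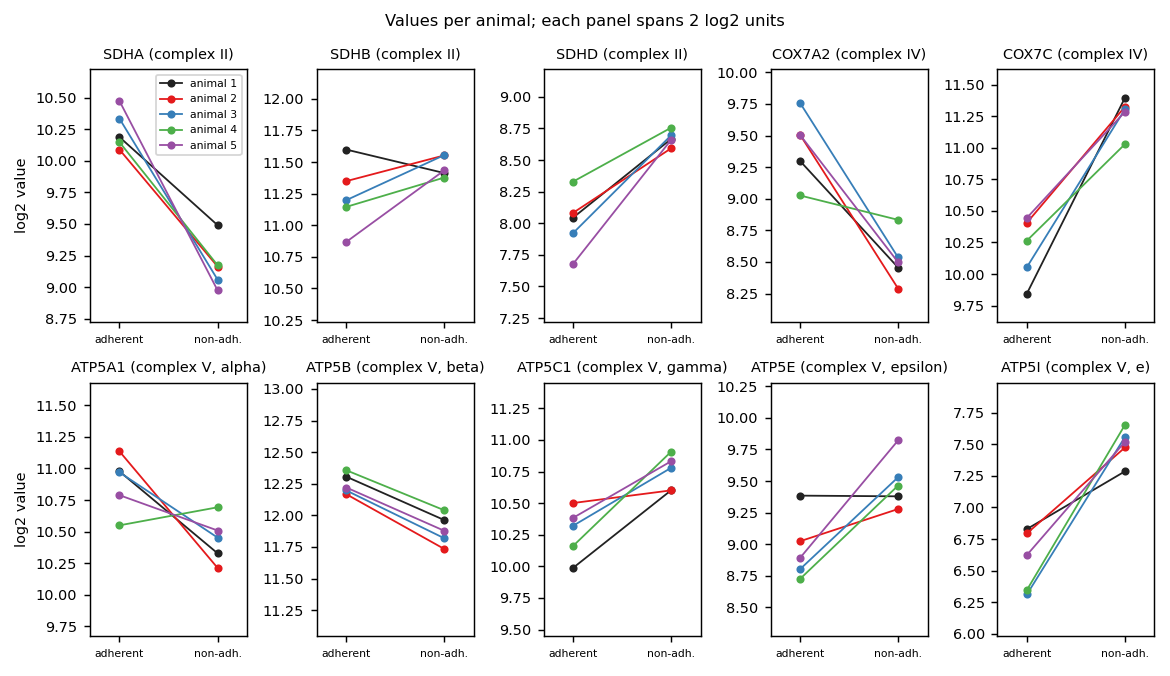
Log2 values of 10 subunits in adherent and non-adherent cells, with a line for each of the 5 animals; every panel spans 2 log2 units. All 5 lines of SDHA, COX7A2 and ATP5B fall and all 5 of SDHD, COX7C, ATP5C1 and ATP5I climb, whereas SDHB and ATP5A1 each have 1 animal that goes against the other 4, and animal 1 is level for ATP5E.

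Complex V had 3 genes higher and 2 lower of 14 (35.7%, against 16.5% of all genes). It also held both directions, among them inside its catalytic head. The head is a ring of alpha and beta subunits, ATP5A1 and ATP5B, which bind the nucleotides and make ATP, and it surrounds a central stalk with the gamma and epsilon subunits, ATP5C1 and ATP5E. All 4 of these genes passed, 2 lower and 2 higher. The planned groups did not split a complex into parts, so counts within parts, here and for complex I, are descriptive. ATP5B values were 11.96, 11.73, 11.82, 12.04 and 11.88 in non-adherent and 12.31, 12.17, 12.20, 12.36 and 12.22 in adherent cells, with no overlap. ATP5B fell by 0.36 ± 0.08 (adjusted p = 0.0135), in 5 of 5 animals. ATP5A1 values were 10.33, 10.21, 10.45, 10.69 and 10.51 against 10.98, 11.13, 10.97, 10.55 and 10.79. Here adherent animal 4 lay among the non-adherent arrays. ATP5A1 fell by 0.44 ± 0.13 (adjusted p = 0.0351), in 4 of 5 animals. When blocked by animal the difference was the same, but it no longer passed (adjusted p = 0.0838).

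The stalk genes were higher in non-adherent cells. ATP5C1 values were 10.60, 10.60, 10.78, 10.91 and 10.83 in non-adherent and 9.99, 10.50, 10.32, 10.16 and 10.38 in adherent cells, without overlap. ATP5C1 rose by 0.47 ± 0.11 (adjusted p = 0.0153), although 1 of its 4 probe sets pointed the other way (-0.17) and the mean of all 4 did not pass (0.35, adjusted p = 0.0582). ATP5E values were 9.38, 9.28, 9.53, 9.46 and 9.82 against 9.38, 9.02, 8.80, 8.72 and 8.89, and overlapped only through adherent animal 1. ATP5E rose by 0.53 ± 0.14 (adjusted p = 0.0264). Its 3 probe sets averaged 0.22, which did not pass (adjusted p = 0.29).

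In the membrane part of the ATP synthase, ATP5I, the e subunit of the contact between synthase dimers, had the largest difference of complex V. Its values were 7.29, 7.47, 7.56, 7.65 and 7.52 in non-adherent and 6.83, 6.79, 6.31, 6.35 and 6.62 in adherent cells. Every non-adherent array was above every adherent one, and ATP5I rose by 0.92 ± 0.12 (adjusted p = 0.000803), a 1.89-fold higher level. ATP5G1, ATP5G2 and ATP5G3 encode the same mature c subunit of the rotor ring in mammals, and 0 of these 3 genes passed. Their differences were 0.36 ± 0.12 for ATP5G1 (adjusted p = 0.0678), -0.45 ± 0.14 for ATP5G3 (adjusted p = 0.0518) and -0.17 ± 0.14 for ATP5G2. ATP5G3 passed when blocked by animal (adjusted p = 0.0207). Its second, dimmer probe set pointed the other way (0.29), and both averaged -0.08 (adjusted p = 0.658). That probe set had means of 4.21 in non-adherent and 3.92 in adherent cells, below the median of all probe sets. ATP5G1 passed without the array of adherent animal 4 (0.46, adjusted p = 0.014). ATPIF1, which inhibits the ATP-splitting reaction of the synthase and lies outside the set, had a difference of 0.13 ± 0.13 (adjusted p = 0.541).

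The other 6 genes of complex V did not pass. They were ATP5F1 and ATP5J of the outer stalk (0.21 and -0.28), ATP5L and ATP5J2 of the membrane part (-0.34 and 0.00), and ATP5H and ATP5O, also of the outer stalk (0.14 and -0.12). The probe sets of ATP5H and ATP5O had means of 2.63 to 4.05 in both groups, below the median of all probe sets, as did that of NDUFA4 in complex IV (3.49 and 3.56). The differences of these 3 genes were measured near the floor of the array and are given as values alone. All other genes of the set, 56 of 59, had means above that median, NDUFA4L2 only just (5.04 and 5.05).

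Complex IV had 1 gene higher and 1 lower of 9 (22.2%), both small subunits. Of all genes 16.5% passed, and of those above the median of all probe sets 22.6%. COX7C and COX7A2 are single-span proteins around the catalytic core, which mitochondrial DNA encodes. COX7C values were 11.39, 11.32, 11.30, 11.03 and 11.28 in non-adherent and 9.85, 10.41, 10.05, 10.26 and 10.44 in adherent cells. COX7C rose by 1.06 ± 0.13 (adjusted p = 0.000396), a 2.09-fold higher level and the largest rise of the set, with no overlap between the groups. COX7A2 values were 8.46, 8.29, 8.54, 8.83 and 8.50 against 9.30, 9.51, 9.76, 9.03 and 9.51, also without overlap. COX7A2 fell by 0.90 ± 0.14 (adjusted p = 0.00209), a 1.86-fold lower level. Its second, dimmer probe set had a difference of 0.09 (adjusted p = 0.644), and the mean of both was -0.40 (adjusted p = 0.00931). That second probe set had means of 3.73 in non-adherent and 3.64 in adherent cells, below the median of all probe sets.

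COX7A2 is the form found in most tissues and COX7A1 the form of heart and skeletal muscle. COX7A1 did not pass (0.40 ± 0.14, adjusted p = 0.0679), and its highest adherent value, 7.07 in animal 4, lay within the non-adherent range of 6.88 to 7.22. It passed without that array (0.51, adjusted p = 0.0172). Its second, dimmer probe set pointed the other way (-0.31), and both averaged 0.05 (adjusted p = 0.839). That probe set had means of 3.30 in non-adherent and 3.61 in adherent cells, below the median of all probe sets. NDUFA4L2, the isoform of NDUFA4 that hypoxia is known to induce, had values from 4.85 to 5.19 in non-adherent and from 4.99 to 5.16 in adherent cells. Its difference was -0.01 ± 0.08, with a 95% interval from -0.19 to 0.18. Its means of 5.04 and 5.05 lay barely above 5.02, the median of all probe sets, which limits what this interval shows. COX6A1, the form of this subunit in most tissues, had a difference of -0.08 ± 0.08 with an interval from -0.25 to 0.09. COX5B (-0.20), COX6B (-0.11), COX6C (-0.45) and NDUFA4 (-0.07) did not pass either. COX6C varied most among them in adherent cells, from 8.50 to 9.79. Its second probe set pointed the other way (0.39, adjusted p = 0.067 in the fit over all probe sets). That probe set had means of 6.19 in non-adherent and 5.81 in adherent cells, above the median of all probe sets.

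Complex I, the largest complex, had 4 genes higher, 2 lower and 19 that did not pass, with a median difference of -0.09. Complex I thus had 24% past the threshold, near the 22.6% of genes above the median of all probe sets (16.5% of all genes). Among its 10 NDUFB genes, which build the far membrane arm, 2 were higher and 1 lower (30%). NDUFB2 values were 8.16, 8.18, 8.12, 8.13 and 8.11 in non-adherent and 9.22, 9.27, 9.36, 9.05 and 8.90 in adherent cells. The non-adherent arrays were nearly alike, with an SD of 0.03, and lay well below the adherent ones. NDUFB2 fell by 1.03 ± 0.09 (adjusted p = 9.42e-05), a 2.04-fold lower level and the lowest p of the set.

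Of the same arm, NDUFB3 and NDUFB6 were higher. NDUFB3 values were 6.85, 6.99, 7.33, 7.31 and 7.13 against 6.37, 6.74, 6.45, 6.77 and 6.50, without overlap, and it rose by 0.56 ± 0.12 (adjusted p = 0.0103). NDUFB6 values were 9.83, 9.92, 10.06, 9.96 and 10.02 against 9.98, 9.30, 9.35, 9.49 and 8.96, where adherent animal 1 lay among the non-adherent arrays. NDUFB6 rose by 0.54 ± 0.16 (adjusted p = 0.0388), a 1.45-fold higher level. When blocked by animal the difference was the same, but it no longer passed (adjusted p = 0.0588), and neither did it on leaving out any array other than adherent animal 1 (adjusted p up to 0.0839). NDUFA3, a small membrane arm subunit, rose by 0.38 ± 0.10 (adjusted p = 0.0268, or 0.0585 when blocked by animal), from 7.05 to 7.43 in adherent to 7.47 to 7.74 in non-adherent cells.

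The module that oxidises NADH, at the tip of the matrix arm, had 5 measured genes, of which 1 was higher and 1 lower. These are 40% of so few genes, against 16.5% of all genes and 22.6% of those above the median of all probe sets. NDUFS6, a zinc-binding subunit added late in assembly, had values of 7.33, 7.28, 7.37, 7.61 and 7.39 in non-adherent and 8.10, 8.03, 7.91, 7.90 and 7.74 in adherent cells. It fell by 0.54 ± 0.10 (adjusted p = 0.00361), in 5 of 5 animals and without overlap. NDUFA12, which takes the place that the assembly factor NDUFAF2 holds before it, had values of 10.34, 10.41, 10.52, 10.39 and 10.40 against 10.17, 10.03, 9.86, 9.98 and 10.20. It rose by 0.36 ± 0.09 (adjusted p = 0.0157). NDUFS4, another late accessory subunit, did not pass (0.29 ± 0.10, adjusted p = 0.0757), and NDUFS1, a core subunit with iron-sulfur clusters, had a difference of -0.18 ± 0.09. NDUFV3 did not pass by its brighter probe set (-0.56 ± 0.20, adjusted p = 0.0787), whereas its other probe set passed in the fit over all probe sets (-0.60 ± 0.12, adjusted p = 0.00911).

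The remaining 16 genes of complex I had differences between -0.48 and 0.20. NDUFC2 (-0.45 ± 0.14, adjusted p = 0.0504) was the only gene of the set that missed the threshold although its groups did not overlap, and it passed when blocked by animal (adjusted p = 0.0451). It was singled out after its values were seen. NDUFS7, the core subunit next to the ubiquinone site, had a difference of -0.01 ± 0.12 with a 95% interval from -0.28 to 0.26. The membrane arm genes NDUFA1 (-0.17), NDUFB1 (0.09), NDUFB4 (-0.13), NDUFB5 (-0.09), NDUFB8 (0.20), NDUFB9 (0.13), NDUFB10 (-0.48), NDUFB11 (-0.14), NDUFC1 (-0.12) and NDUFS5 (0.09) did not pass, and neither did NDUFA8 (-0.21), NDUFA9 (0.09), NDUFA10 (0.13) and the acyl carrier NDUFAB1 (-0.13). Averaged over its 25 genes, each measured from its own mean, complex I lay between -0.10 and 0.05 on non-adherent arrays and between -0.14 and 0.19 on adherent arrays, with the highest value in adherent animal 1.

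Complex III was represented by UQCRB and UQCR10, small subunits that flank its cytochrome b core. UQCRB had a difference of -0.15 ± 0.11 (adjusted p = 0.373; 0.15 by its second probe set) and UQCR10 of 0.11 ± 0.09 (adjusted p = 0.416). The second probe set of UQCRB had means of 3.33 in non-adherent and 3.18 in adherent cells, below the median of all probe sets. By the brighter one, UQCRB values ran from 8.32 to 8.84 in non-adherent and from 8.72 to 8.92 in adherent cells. Those of UQCR10 ran from 9.11 to 9.42 and from 8.97 to 9.23. With 2 genes, both with 95% intervals that include 0, little can be said of this complex here.

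Of the 6 assembly and related factors, 3 were lower in non-adherent cells and 0 higher (50%, against 16.5% of all genes). ATP5SL, which despite its name helps to assemble the membrane arm of complex I, had values of 8.86, 8.90, 9.31, 9.51 and 9.38 in non-adherent and 9.90, 10.19, 10.23, 10.63 and 10.18 in adherent cells. Its groups did not overlap, and it fell by 1.03 ± 0.16 (adjusted p = 0.00199), a 2.05-fold lower level. NDUFAF1, an early factor of the membrane arm, averaged 6.75 in non-adherent cells, where each value lay below the adherent values of 7.37, 7.50, 7.45, 7.30 and 7.07, and fell by 0.58 ± 0.12 (adjusted p = 0.00868). NDUFAF3, which joins the ubiquinone-binding module to the membrane, ran from 7.72 to 7.96 against 8.04 to 8.55 and fell by 0.42 ± 0.11 (adjusted p = 0.0254). NDUFAF4, the partner of NDUFAF3, did not pass (0.32 ± 0.24, adjusted p = 0.4), and its brighter probe set varied widely, with SDs of 0.43 and 0.42. NDUFAF2 (-0.06 ± 0.20) and ATP5S (0.31 ± 0.15) did not pass.

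**Figure D3:**
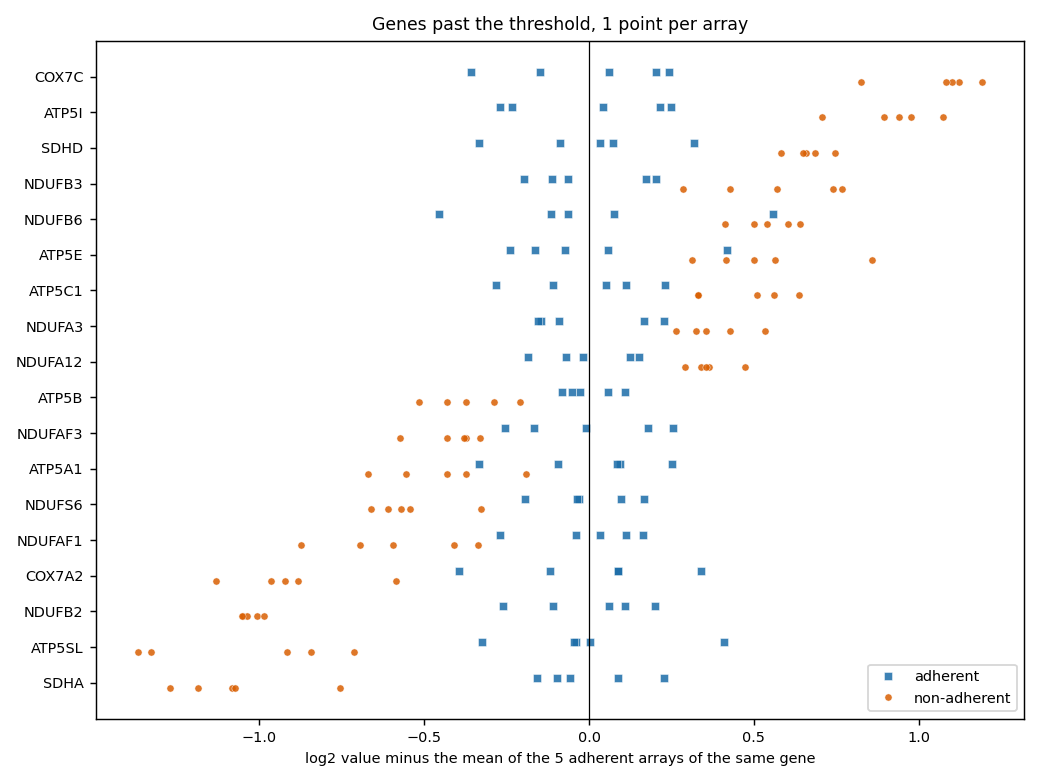
Log2 values of the 18 genes that passed, each array shown relative to the mean of the 5 adherent arrays of that gene, with squares for adherent and circles for non-adherent arrays. The groups are separate for 15 of the 18 genes and touch or mix for NDUFB6, ATP5E and ATP5A1.

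Separation between the groups is read from the same values as the test, so it is no independent support for the genes that passed. The groups did not overlap for 16 of 59 genes, or 27.1%, against 15.0% of all genes, and these were 15 of the 18 that passed plus NDUFC2. Spread between animals was smaller in non-adherent cells, with a median SD over the set of 0.14 against 0.21 in adherent cells and 0.18 without adherent animal 1. Over all genes these medians were 0.17, 0.20 and 0.16.

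How firmly a gene stood differed within the set. NDUFB2, SDHA, COX7C, ATP5I, ATP5SL, COX7A2, SDHD and NDUFS6 passed under all 22 other settings that were run. These genes had the lowest p values of the set. Every setting refits the same arrays or part of them, so passing them all is no independent support. No setting separates attachment from the sort or the array series. NDUFAF1, NDUFB3, ATP5B, ATP5C1 and NDUFA12 also passed when any single array was left out. Leaving out both arrays of an animal ended these 5 calls too: NDUFAF1 without animal 3 (adjusted p = 0.0568), NDUFB3 and ATP5B without animal 3 or 5 (up to 0.0678 and 0.0642), ATP5C1 without animal 3, 4 or 5 (up to 0.0821), and NDUFA12 without animal 2, 3 or 4 (up to 0.0883). The other 5 depended on single arrays. NDUFA3 no longer passed without non-adherent animal 1, 2 or 3 or adherent animal 2, 3 or 5 (adjusted p up to 0.0649). ATP5A1 no longer passed without non-adherent animal 1, 2, 3 or 5 or adherent animal 2, 3 or 5 (up to 0.0793). ATP5E no longer passed without non-adherent animal 3 or 5 or adherent animal 3, 4 or 5 (up to 0.0635), and NDUFAF3 without non-adherent animal 2 or 4 or adherent animal 4 (up to 0.0593). NDUFB6 was described above. Without both arrays of an animal, adjusted p values of these 5 genes reached 0.104 for NDUFAF3, 0.12 for ATP5E, 0.122 for NDUFA3, 0.135 for ATP5A1 and 0.151 for NDUFB6.

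Counts over the set moved with the arrays that entered. Leaving out both arrays of animal 3 reduced it to 3 higher and 5 lower genes (13.6%), the 8 genes just named as passing under all settings, against 8.14% of all genes (2.81% higher and 5.32% lower). Without the array of adherent animal 1, 10 genes were higher and 9 lower (32.2%), against 22.3% of all genes (9.34% and 13.0%). In the fit blocked by animal, 7 were higher and 10 lower (28.8%), against 18.2% (7.85% and 10.4%). After quantile normalization 13 were higher and 9 lower (37.3%), against 16.0% (7.55% and 8.50%). In each of these settings the share of the set lay above that of all genes, and it held both directions. These shares of all genes were not matched for level, and 56 of the 59 genes lay above the median of all probe sets. With all 10 arrays, 22.6% of genes above that median passed, against 16.5% of all genes.

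Of the 59 genes, 38 had 1 probe set and 21 had more, 94 probe sets in all. In 8 of these 21 genes every probe set had the same sign, and in 13 the signs were mixed. In ATP5G3, ATP5J, COX7A1, COX7A2, NDUFAF4, NDUFS7 and UQCRB, they were mixed only through a probe set with means below the median of all probe sets. In ATP5C1, ATP5E, ATP5L, COX5B, COX6C and SDHB, probe sets above that median differed in sign. Of the 4 genes with more than 1 probe set that passed, SDHA had 4 of 4 lower and past the threshold. ATP5C1 had 3 of 4 higher, ATP5E 2 of 3 higher and COX7A2 1 of 2 lower. The other 14 genes that passed had 1 probe set and so no second measurement. Several of these genes are known in mammals to have processed pseudogenes, and whether such copies add to a probe set was not tested.

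**Figure D4:**
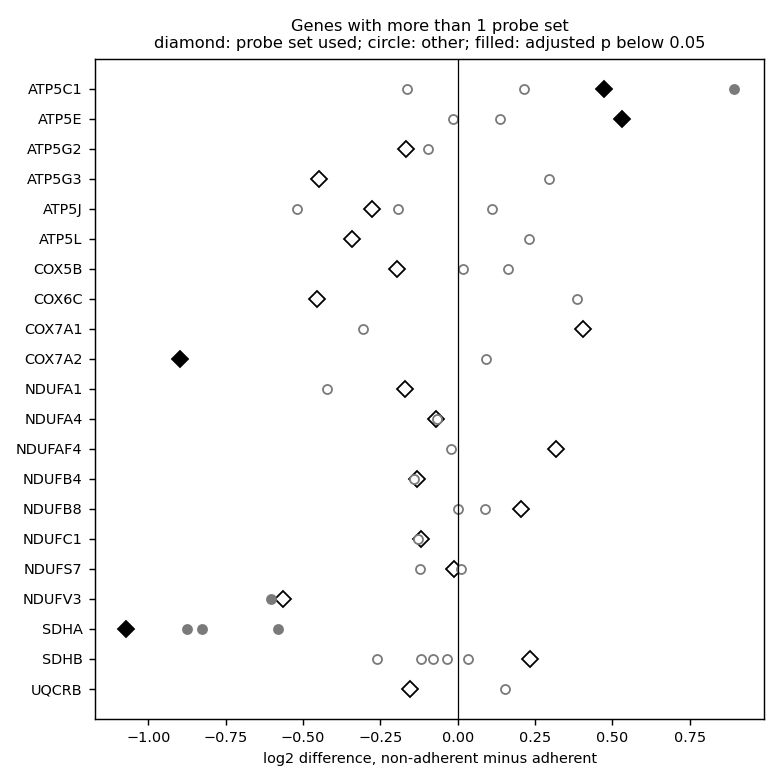
Log2 differences, non-adherent minus adherent, of every probe set of the 21 genes with more than 1. Diamonds mark the probe set used, circles the others, and filled symbols those with an adjusted p below 0.05 over all 47845 probe sets; all 4 symbols of SDHA are filled and lie left of 0, whereas those of 13 genes lie on both sides.

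Neighbouring mitochondrial genes, taken from lists by symbol, also passed in both directions, but more often lower than higher. Over 161 such genes outside the set, 6 were higher and 26 lower, with a median difference of -0.05. These 19.9% lay near the 16.5% of all genes (6.72% higher and 9.78% lower), and 150 of the 161 were above the median of all probe sets, where 22.6% of genes passed (8.40% higher and 14.2% lower). The assembly factor list held 18 measured genes, 4 of them the NDUFAF genes above, of which 1 was higher and 4 lower (27.8%, median -0.20). TMEM126B, which works with NDUFAF1 on the membrane arm of complex I, rose by 0.45 ± 0.11 (adjusted p = 0.0151), while NDUFAF1 itself fell. TTC19, a factor of complex III, fell by 0.53 ± 0.11 (adjusted p = 0.00789, or up to 0.0535 on leaving out an animal). Among 18 electron carrier genes, 0 were higher and 1 was lower (5.56%), COQ10B, which binds ubiquinone, with a fall of 0.80 ± 0.22 (adjusted p = 0.0321) and no overlap between the groups. COQ10B no longer passed on leaving out any of 5 arrays (adjusted p up to 0.0749) or of 4 animals (up to 0.0945), nor TMEM126B on leaving out any of 3 animals (up to 0.0838).

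In the citrate cycle and pyruvate dehydrogenase, which supply the electrons, 1 of 21 genes was higher and 2 were lower (14.3%, below the 16.5% of all genes, median -0.03). OGDH, the first subunit of the 2-oxoglutarate dehydrogenase, fell by 1.10 ± 0.12 (adjusted p = 0.000227), a size close to that of SDHA, although its 3 probe sets averaged -0.42 (adjusted p = 0.00198). DLAT, the acetyltransferase of pyruvate dehydrogenase, rose by 0.69 ± 0.16 (adjusted p = 0.0135), and IDH2, the mitochondrial NADP-dependent isocitrate dehydrogenase, fell by 0.47 ± 0.14 (adjusted p = 0.0387), whereas its 5 probe sets averaged 0.16 (adjusted p = 0.337). IDH2 also failed on leaving out any of 7 arrays (adjusted p up to 0.0868) or of 3 animals (up to 0.14), and DLAT on leaving out any of 3 animals (up to 0.0695). Of 15 factors of mitochondrial biogenesis, 0 were higher and 2 lower (13.3%, median -0.00). These were POLG, the polymerase of mitochondrial DNA, which fell by 0.56 ± 0.09 (adjusted p = 0.00207), and PPARGC1A, a coactivator of respiratory genes, which fell by 0.71 ± 0.13 (adjusted p = 0.00423) from a level already below the median of all probe sets. The mean of 4 probe sets of PPARGC1A did not pass (-0.07, adjusted p = 0.612).

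Carriers that bring ADP and phosphate to the synthase, with channels and uncoupling proteins, had 0 of 11 genes higher and 3 lower (27.3%, median -0.24). Of all genes 16.5% passed, and of those above the median of all probe sets 22.6%. The shares of this and the next 2 lists lay near the latter. SLC25A6, an ADP/ATP translocase, fell by 0.92 ± 0.13 (adjusted p = 0.000898; -0.51 averaged over its 2 probe sets) and UCP2, an inner membrane carrier, by 0.55 ± 0.11 (adjusted p = 0.00653). In mitochondrial ribosomal proteins, 3 of 59 genes were higher and 12 lower (25.4%, median -0.01). MRPL1 rose by 0.94 ± 0.09 (adjusted p = 0.000138) and MRPL39 by 0.53 ± 0.12 (adjusted p = 0.0141, but up to 0.0833 without any of 3 animals), whereas MRPS2 fell by 0.94 ± 0.12 (adjusted p = 0.000612) and MRPS25 by 0.82 ± 0.10 (adjusted p = 0.00035). In mitochondrial protein import, 1 of 23 genes was higher and 4 lower (21.7%, median -0.05). DNAJC19, a cochaperone of the import motor, rose by 0.65 ± 0.11 (adjusted p = 0.00368). Its adherent mean, 4.89, was below the median of all probe sets. PMPCA, a subunit of the presequence protease, fell by 0.61 ± 0.09 (adjusted p = 0.00174) and the carrier translocase TIMM22 by 0.77 ± 0.15 (adjusted p = 0.00662). No difference between these lists was tested.

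**Figure D5:**
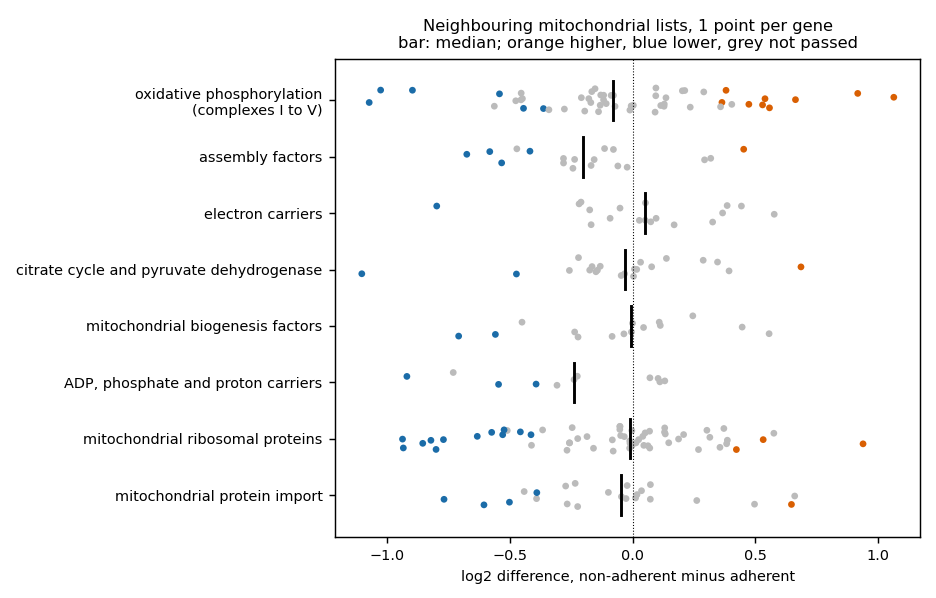
Log2 differences, non-adherent minus adherent, for the subunits of complexes I to V and for 7 neighbouring mitochondrial lists, with 1 point per gene, orange for higher, blue for lower and grey for not passed, and a bar at each median. The medians lie between -0.24 and 0.05, and 4 of the 8 rows hold genes past a log2 of 0.9 in size.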

How the data were processed

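The authors deposited log2 probe set values of 10 arrays. RMA and Partek are the tools listed in the submitters' processing notes, with neither version nor order, and joint normalization of both array series is not stated there. The deposited log2 values were used as they stand, from 1.95 to 13.91, with array medians of 4.97 to 5.09. For arrays, their number limits the precision. Of 47845 probe sets, 26426 had 1 symbol in the platform annotation, which can be old. The comparison, all 10 arrays without a block, was fitted across all genes with lmFit and eBayes in limma 3.58.1 (R 4.3.3), 2-sided, with Benjamini-Hochberg adjustment. The fit was tested on simulated data. Arrays with the same number pair because the labels give them the same animal. Their residuals correlated at 0.116 to 0.398 over all genes, but at 0.211, 0.0237, -0.00414, -0.184 and 0.173 for animals 1 to 5 over the 59 genes alone.

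The members and lists were chosen with earlier results of these data known. Named were every member that passed, the 2 lowest p values and 2 highest means per complex, isoform genes, and up to 2 genes per direction of each list; other members are given to account for all. Isoform genes with no named probe set were not analysed here. Alternatives were the block, leaving out animals or arrays, centring, quantile normalization, a level filter, mean probe sets, trended and robust variance, and array weights. Figures used matplotlib 3.10.9.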

Additional observations from a re-analysis of the deposited data

Results flagged for a closer look

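Within each group of 5 arrays, the highest or lowest value of 30 genes (29 of the set and ATPIF1) was compared with the rest by the gap to its nearest neighbour over the range, with a critical value of 0.71. Of 60 groups, 2 exceeded it, and chance alone gives about 1 in 20. UQCRB of adherent animal 1 was the highest adherent value at 8.92, next to 8.75 (gap over range 0.859). ATP5G1 of adherent animal 4 was the highest adherent value at 12.04, next to 11.59 (0.824), and ATP5G1 passed when that array was left out.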

How the results depend on the processing

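Over 18 genes that passed and 22 settings, 332 of 396 values stayed past the threshold in the same direction, 64 no longer passed and 0 changed sign. Of the 64, 3 came from the block, 2 from mean probe sets (ATP5C1, ATP5E) and 1 from centring (NDUFB6), and the others from leaving out arrays, where fewer samples were fitted. Without 1 animal, higher genes of the set numbered from 3 (without animal 3) to 9 and lower genes from 5 to 8, and all genes past the threshold from 1119 to 2576 against 2270. Without animal 3, 8 of the 18 passed, and without animal 5, 4 were higher and 8 lower. Without 1 array these counts ran from 6 to 10 higher, from 7 to 11 lower, and from 1638 to 3067 over all genes, the last without adherent animal 1. Quantile normalization gave 13 higher and 9 lower, centred arrays 8 and 10, and mean probe sets 7 and 11. With the animal as a replicate block, ATP5A1, NDUFA3 and NDUFB6 no longer passed, ATP5G3 and NDUFC2 did, and the block changed no other call of the set. The median difference lay between -0.12 and -0.02 under all settings. The cause of these changes was not tested. Arrays give no count depth, and 3 of the probe sets used (ATP5H, ATP5O, NDUFA4) were near the floor, which limits those genes. Second probe sets of COX7A2, COX7A1, ATP5G3 and UQCRB, among others, also lay below the median of all probe sets. Their signs, and averages that include them, are limited in the same way.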
